A study of Williopsis jadinii with 8 samples.

Results

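The transcripts described here are those of the yeast Candida utilis with a 2-fold or larger difference between strain TMS174 and the wild type on xylose and a difference under 1.5-fold between xylose and glucose in the wild type. They number 58 of the 8604 design identifiers (design IDs) on the array, each ID standing for 1 predicted transcript, and of the 7210 that were well above background on all 8 arrays. In TMS174, 18 of them were higher and 40 lower. They were chosen by measured values. With X the mean of WT on xylose, G that of WT on glucose and T that of TMS174, the absolute difference X minus G had to be below 0.585 and that of T minus X at least 1, on the log2 scale. Both differences, and T minus G, which is their sum, are therefore given as a description, with no test. A level below is the log2 of a transcript's processed signal relative to the 75th percentile of its array, averaged over the 1 or 2 probes of the design ID.

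Candida utilis, listed as Williopsis jadinii and grown industrially as torula yeast, was measured on one-colour oligonucleotide arrays. The wild type (WT) was strain NBRC0988, with 3 glucose cultures taken at 10.5 h and 3 xylose cultures at 24 h. TMS174, labelled as xylose-fermenting, had 2 xylose cultures, also taken at 24 h. All cultures followed a 3-day glucose preculture and grew semi-aerobically at 30 °C in yeast extract and peptone medium with 50 g/L xylose, or with glucose that the labels give as 20 g/L under a medium name shared with the 50 g/L medium. The series title calls the organism recombinant. The genotype of TMS174, the genes and promoters introduced into it, its parent and whether it is 1 clone are not given in the sources used here. Sugar and sampling time changed together in WT. The 6 WT arrays lay on 1 slide and both TMS174 arrays on another, and the strain and its slide cannot be told apart in any value below. The replicates are independent experiments by the series description. Array signals correlated at r = 0.988 to 0.998 within groups over the 7210 design IDs. Precision is limited by how few arrays there were. The local background had a median intensity of 24.5 to 27 per array, and no yeast spot was saturated.

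Yeasts that use xylose reduce it to xylitol, oxidise that to xylulose and phosphorylate the product, which then enters the pentose phosphate pathway. Wild-type strains of many such species respire xylose rather than ferment it, and strains built to ferment it usually carry altered genes for these steps. The transcripts described here differed between strains on the same sugar and little between sugars within the wild type. No TMS174 culture on glucose was measured. Whether their strain difference depends on the carbon source can therefore not be told. None of the design IDs matched a locus tag or symbol in the gene table of the Cybja1 assembly, and the files do not pair them with gene names. No pathway or role can thus be assigned to any of the 58, and lists of genes of sugar metabolism could not be applied.

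The 58 made up a minority of the strain differences. Of the 7210 design IDs, 297 (4.12%) had a strain difference of 2-fold or more on xylose, 113 of them higher and 184 lower in TMS174. Most of these lay on the opposite side in the sugar comparison: 127 were higher on xylose in WT and lower in TMS174, and 86 were lower on xylose and higher in TMS174. The 2 sets that moved further in the same direction held 9 (higher on xylose and higher in TMS174) and 17 (lower in both). The WT xylose arrays enter both differences with opposite sign. The 58 were 19.5% of the 297, at 15.9% of the higher and 21.7% of the lower ones. They were 1.47% of the 3958 design IDs that were steady between the sugars by the same threshold.

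**Figure D1:**
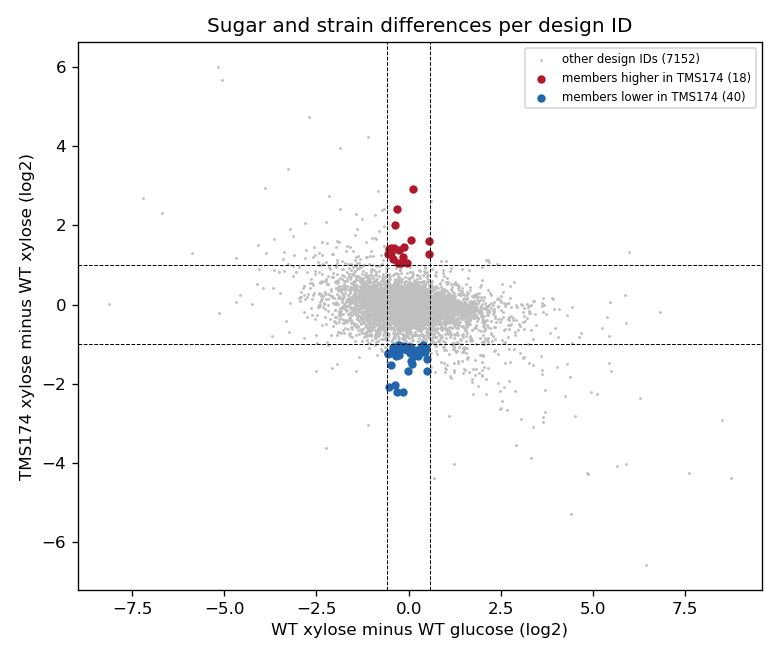
Difference between the sugars in WT (horizontal axis, log2) against the difference between the strains on xylose (vertical axis, log2) for the 7210 design IDs above background on all arrays, 1 point each. Dashed lines mark the thresholds of the rule; the 18 higher members (red) and 40 lower members (blue) fill the central strip above and below them, while most other 2-fold strain differences lie at the upper left and lower right.

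Differences between the strains were moderate for most of the 58. Among the 18 higher transcripts, T minus X ranged from 1.05 to 2.92 with a median of 1.40, and among the 40 lower ones from -1.02 to -2.22 with a median of -1.2. The median over the 7210 design IDs was -0.01. At least 4-fold differences were reached by 3 of the higher and 4 of the lower transcripts. The threshold cut through a dense range: 26 of the 58 had an absolute difference under 1.2. Just inside it lay differences of -1.022, -1.024 and 1.049, and just outside -0.996, -0.996 and -0.995. At the sugar threshold the closest transcripts inside had X minus G of -0.574, -0.558 and 0.556, and the closest outside -0.588, 0.596 and 0.600.

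The transcript with the largest rise in TMS174 was cut01g2810001. Its level was -1.94, -4.08 and -1.86 on the WT glucose arrays, -3.19, -2.24 and -2.09 on the WT xylose arrays, and 0.23 and 0.60 in TMS174. Both TMS174 arrays stood above every WT array, and the WT arrays themselves were spread, with the second glucose array lowest. The mean was -2.63 ± 1.26 on glucose, -2.50 ± 0.60 on xylose (SD, n = 3 each) and 0.42 ± 0.26 in TMS174 (SD, n = 2). TMS174 was thus 7.57-fold above WT on xylose (T minus X 2.92, SE 0.69). On the linear scale the processed signals were 188 to 815 intensity units on WT glucose arrays, 422 to 972 on WT xylose arrays, and 4170 and 5090 in TMS174. Each of its 2 probes showed the rise, with T minus X of 3.18 and 2.66.

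The second, cut01g0050658, was already among the brighter transcripts in WT. It read 0.62, 0.86 and 0.58 on glucose, -0.08, 1.01 and 0.21 on xylose, and 2.73 and 2.84 in TMS174. The WT groups overlapped each other, and TMS174 lay apart from both. Its T minus X was 2.41 (SE 0.29), or 5.31-fold, with 2.5 and 2.32 at the 2 probes. The design IDs numbered directly before and after it showed no such rise: their T minus X was -1.10 (above background on 3 arrays only) and -0.18.

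The largest falls in TMS174 belonged to cut01g0050117 and cut01g0050118, which carry consecutive numbers. The level of cut01g0050117 was -0.76, -0.23 and -1.19 on WT glucose arrays, -0.91, -0.84 and -0.90 on WT xylose arrays, and -2.92 and -3.28 in TMS174. That of cut01g0050118 was -2.35, -1.85 and -2.86 on glucose, -2.6, -2.72 and -2.72 on xylose, and -4.62 and -5.15 in TMS174. In both, the glucose arrays were more spread than the xylose arrays, the second glucose array was highest and the third lowest, and TMS174 lay below all 6 WT arrays. T minus X was -2.22 (SE 0.26) and -2.21 (SE 0.29), so WT on xylose was 4.65-fold and 4.62-fold above TMS174.

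The numbers around this pair were looked up after its values were seen. The design ID numbered directly before the pair, cut01g0050116, was also lower in TMS174, with a T minus X of -2.67. It fell outside the 58 because it rose by 2.68 from glucose to xylose in WT, and its mean in TMS174, -5.58, was that of WT on glucose to the second decimal. The design ID directly after the pair, cut01g0050119, had a T minus X of -0.10. The sources used here do not say whether consecutive numbers are neighbours on a chromosome.

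**Figure D2:**
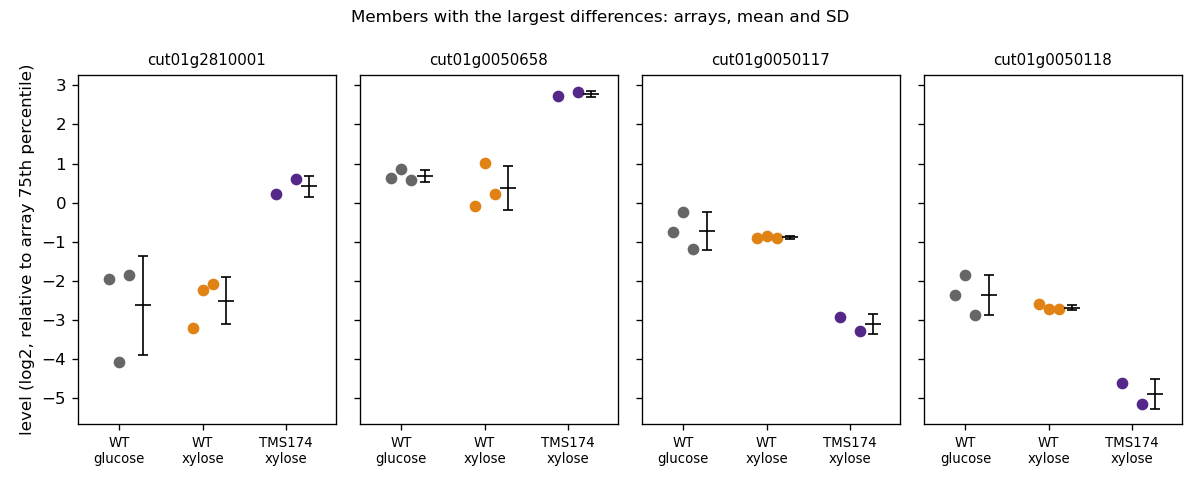
Level (log2, relative to the array's 75th percentile) of the 4 members at the ends of the range, 2 that rose most and 2 that fell most in TMS174. Points are arrays of WT on glucose (grey, n = 3), WT on xylose (orange, n = 3) and TMS174 on xylose (purple, n = 2), and bars are the mean and SD; in each panel both TMS174 points lie outside the range of the 6 WT points.

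Several other transcripts are described here because of their values, which were seen before they were chosen. Both of the first 2 were bright and lower in TMS174. The level of cut01g0010560 was 1.64, 1.76 and 1.49 on glucose, 1.77, 1.68 and 1.64 on xylose and 0.30 and 0.25 in TMS174. Its replicates were close in every group, and T minus X was -1.43 (SE 0.10). For cut01g0010660 the levels were 1.25, 1.58 and 1.51 on glucose, 1.21, 0.80 and 0.72 on xylose and -0.96 and -1.36 in TMS174. This transcript was already lower on xylose than on glucose in WT (X minus G -0.53), and fell further in TMS174 (T minus X -2.07, SE 0.19). The third highest rise was that of cut01g0030726, a dim transcript at -4.94, -5.31 and -4.65 on glucose, -5.33, -5.25 and -5.47 on xylose and -3.27 and -3.40 in TMS174 (T minus X 2.01, SE 0.18).

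In most of the 58, both TMS174 arrays lay apart from every WT array of either sugar. This held for all 18 higher and 37 of the 40 lower transcripts (94.8% of the 58), against 26.3% of the 7210 design IDs (11.9% above and 14.4% below) and 31.9% of the 3958 steady ones. Since the rule chose the 58 for their distance between the strains, nothing is read from the excess. By limma's moderated test with Benjamini-Hochberg adjustment over 7970 design IDs, 53 of the 58 passed an adjusted p of 0.05 between the strains on xylose (all 18 higher and 35 lower), where 17.8% of all design IDs passed, 7.31% higher and 10.5% lower. The rule used the same contrast, and nothing is read from this count either. Without WT xylose replicate 3, 35 of the 58 passed, and 590 of all design IDs. With TMS174 replicate 1 left out, 17 higher and 34 lower transcripts of the 58 stayed at least 2-fold apart. With TMS174 replicate 2 left out these were 16 and 34.

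**Figure D3:**
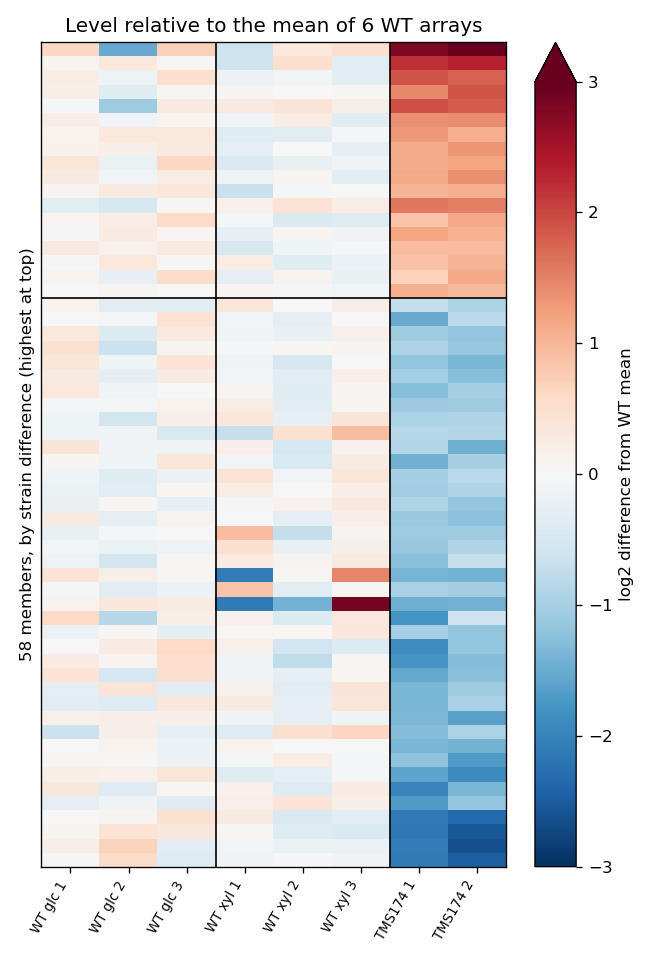
Level of each of the 58 transcripts (rows, ordered by T minus X) on each of the 8 arrays (columns), as the log2 difference from the transcript's mean over the 6 WT arrays. The TMS174 columns are red for the 18 higher and blue for the 40 lower transcripts, and a few lower transcripts show a strong contrast among the WT xylose columns as well.

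The 5 transcripts that did not pass were all lower in TMS174 by their means, and in each of them the replicates of at least 1 group were far apart. For cut01g0030093 the WT xylose arrays read -7.56, -6.87 and -2.58, against -5.35, -5.11 and -5.21 on glucose and -6.90 and -6.86 in TMS174. The third xylose array stood far above both TMS174 arrays, the first below them and the second between them. Without that array T minus X was 0.33, in place of -1.21 (SE 1.32). The WT xylose arrays of cut01g0030402 read -4.80, -2.67 and -1.23, with TMS174 at -4.09 and -4.11 and glucose at -2.29, -2.52 and -2.66. Here T minus X was -1.2 (SE 0.88), and -0.37 without the third xylose array.

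The next number, cut01g0030403, showed the same order of the xylose arrays at a high level. It read 1.65, 2.81 and 3.27 on xylose, 2.21, 2.24 and 1.88 on glucose and 1.49 and 1.47 in TMS174, and its T minus X of -1.10 (SE 0.42) was -0.75 without the third xylose array. In cut01g0000358 the first xylose array was the high one, at -4.72 beside -6.36 and -5.58, with glucose at -5.88, -5.70 and -5.67 and TMS174 at -6.72 and -6.71. Its T minus X was -1.16 (SE 0.41), and -0.75 without that array. The last of the 5, cut01g0010187, read -7.4, -8.85 and -7.79 on glucose, -7.87, -8.4 and -7.68 on xylose and -9.8 and -8.61 in TMS174. Here both the glucose and the TMS174 arrays were far apart, and the second TMS174 array lay above the second glucose array. In 4 of these 5 the TMS174 arrays lay close together and the WT xylose arrays did not. Most other design IDs numbered close to cut01g0030402 and cut01g0030403 were lower in TMS174 as well. The nearest, cut01g0030404 (not among the 58), rose by 4.41 on xylose in WT and had a T minus X of -5.29. For cut01g0030406 (among the 58) T minus X was -1.16. Outside the 58 it was -1.57 for cut01g0030399, -0.91 for cut01g0030401, -1.32 for cut01g0030405 (above background on 1 array only) and 0.01 for cut01g0030400.

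Some of the 58 carried consecutive numbers. In all, 6 of the 58 (10.3%) stood next to another of the 58 by number, in 3 pairs, cut01g0050117 and cut01g0050118, cut01g0030402 and cut01g0030403, and cut01g0060120 and cut01g0060121. All 6 were lower in TMS174. Of the 7210 design IDs, 1.15% stood next to one of the 58. Within the third pair the levels were far apart, with a mean over all arrays of -1.22 for cut01g0060120 and -7.25 for cut01g0060121, while T minus X was -1.07 and -1.15. The count of 6 depended on single arrays: leaving out the third WT xylose array gave 2, leaving out the second gave 20, and leaving out TMS174 replicate 2 gave 10. Overlap between the probes of consecutive design IDs was not checked.

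The position of TMS174 relative to WT on glucose follows from the rule in part, and is given as values. All 18 higher transcripts stood above WT on glucose, by 0.70 to 3.04 (median 1.03), and all 40 lower ones below it, by -0.63 to -2.61 (median -1.2). The difference from WT on glucose was at least 2-fold for 11 of the 18 and 27 of the 40; over the 7210 design IDs it was at least 2-fold for 22.4%. In 14 of the 18, WT was lower on xylose than on glucose. TMS174 was therefore closer to WT on glucose than to WT on xylose in those 14. The median X minus G over all 18 was -0.27. Among the 40 lower transcripts, 19 were higher and 21 lower on xylose in WT (median -0.01). The xylose mean enters both differences of the rule with opposite sign, and nothing is read from these counts. In the sugar comparison, 10 of the 58 passed limma at an adjusted p of 0.05 (3 higher and 7 lower on xylose), against 68.9% of 7970 design IDs, 34.9% higher and 34% lower. The rule set a ceiling on this difference, and nothing is read from the count. Against WT on glucose, 51 of the 58 passed in TMS174 (62.6% of all design IDs), which the rule fixed in part.

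The 58 were dim as a set. Their level averaged over all arrays had a median of -5.19, against -1.39 over the 7210 design IDs. Of the lower transcripts 28, and of the higher ones 9, lay in the dimmest 25% of the 7210, and 4 and 3 in the brightest 25%. Among steady design IDs in the dimmest 25%, 3.23% were at least 2-fold lower and 1.04% at least 2-fold higher in TMS174. In the remaining 75% these shares were 0.388% and 0.291%. The median T minus X was -0.15 in the dimmest 25% and 0.01 in the rest, so dim design IDs as a whole read lower in TMS174.

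Spot intensities show how close to background the dim transcripts were. For the 28 dim lower transcripts, the median pixel intensity, averaged per group, had a median of 48.5 in TMS174, 74.9 in WT on xylose and 64.6 in WT on glucose. The local background, as above, was 24.5 to 27. Negative-control spots had median intensities of 28.5 to 31. The 9 dim higher transcripts stood at 66.2 in both WT groups and at 185 in TMS174 (medians over the transcripts). By these medians the dim falls were small steps in intensity close to background, and the dim rises were larger. Whether the 2 slides differ in background subtraction at such intensities was not tested.

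Another background correction separated the dim from the bright transcripts. With normexp on the median spot signals, which adds an offset of 50 and so shrinks differences near background, 8 of the 9 brighter higher transcripts and 10 of the 12 brighter lower ones stayed at least 2-fold apart. Of the dim ones, 2 of 9 higher and 3 of 28 lower did. The sign of T minus X turned for 2 of the 58, both dim and lower, to 0.02 (cut01g0010187) and 0.05 (cut01g7530001). Quantile normalization left all 9 dim higher transcripts but only 6 of the 28 dim lower ones at least 2-fold apart, and every brighter one. When the rule was applied anew, it chose 23 higher and 19 lower transcripts under quantile normalization and 15 higher and 13 lower under normexp, and 21 and 35 under scaling to the median, in place of 18 and 40. Among these processings, the excess of lower over higher transcripts therefore held under the main and the median scaling and not under quantile normalization or normexp.

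**Figure D4:**
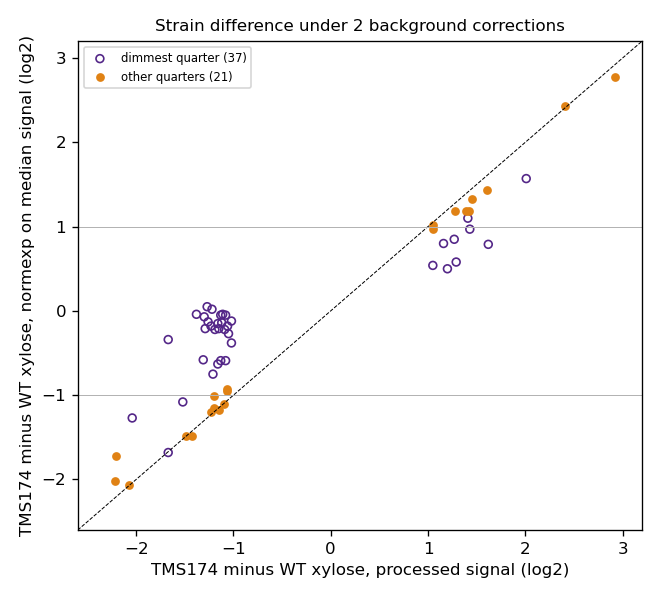
T minus X (log2) of each of the 58 transcripts under the main processing (horizontal axis) against that under normexp correction of the median spot signal (vertical axis). The 21 brighter transcripts (filled) lie near the dashed line of equality, whereas most of the 37 in the dimmest 25% (open) lie closer to 0 on the vertical axis, the lower ones in particular; grey lines mark 2-fold.

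Scaling to the spiked-in control RNA moved the whole strain comparison. Relative to 6 spike-in probes, the 75th percentile stood at 2.22, 1.84 and 1.82 on the WT xylose arrays (log2), at 1.46, 1.71 and 1.5 on the WT glucose arrays and at 1.47 and 1.35 on the TMS174 arrays. The median T minus X over the 7210 design IDs became -0.57, and the rule then chose 12 higher and 311 lower transcripts. All 18 higher transcripts kept a T minus X above 0 under it, but 5 of them reached 2-fold. The differences given here are thus relative to the bulk of the transcripts on each array.

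The 2 probes of a design ID are separate sequences on the same array, and are no replicates of the culture. Of the 58, 44 had 2 probes, and in 43 of these both probes moved the same way between the strains. In 30 of the 44 (10 higher and 20 lower transcripts), both probes were at least 2-fold apart in the same direction and steady between the sugars. Without the condition on the sugars the count among the 44 was also 30. Over all 2-probe design IDs above background on all arrays, 3.05% had both probes at least 2-fold apart the same way, again without that condition. The share of these that moved the same way at any size was not counted. Since the rule chose the 58 by the mean of the same probes, which favours agreement, nothing is read from these counts. The T minus X of the 2 probes correlated at r = 0.78 over the 44 and at 0.89 over all 2-probe design IDs above background on all arrays. Both are descriptions across transcripts that share all arrays, and the choice of members far from 0 in either direction by the probe mean favours a positive r among the 44. The median gap between the probes was 0.13, against 0.07 over all 2-probe design IDs above background on all arrays. A single probe represented 14 of the 58 (24.1%), against 14.9% of the 7210, and 79.3% had every probe above background on every array, against 95.8%.

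In 2 of the 44 the T minus X of the probes disagreed by over 2 on the log2 scale, and in both the mean misdescribes the transcript. The first probe of cut01g0020318 read -4.92, -4.60 and -5.03 on glucose, -0.30, -0.37 and -0.98 on xylose and -5.44 and -4.19 in TMS174. It rose by 4.30 on xylose in WT and had a T minus X of -4.26. The second read -4.67, -4.63 and -4.77 on glucose, -8.42, -7.86 and -7.70 on xylose and -6.97 and -7.19 in TMS174, a fall of 3.31 on xylose and a T minus X of 0.92. The probes started level on glucose and went opposite ways on xylose. Their average made this design ID look steady between the sugars, which neither probe was, so it goes against the description of the set.

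For cut01g0000117 the second probe carried the rise. It read -6.09, -6.01 and -5.88 on glucose, -6.36, -6.18 and -6.07 on xylose and -3.53 and -3.63 in TMS174, a T minus X of 2.63. The first probe, which read lower than the second on all 8 arrays, had a T minus X of 0.24. In all, 6 of the 44 had a probe at or past the sugar threshold, and for 2 of the 6 that probe differed at least 2-fold between the sugars. These 2 were cut01g0020318 and cut01g0050448. The probes of cut01g0050448 had an X minus G of -0.77 and 1.28, so it too was steady between the sugars only by averaging and goes against the description of the set.

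**Figure D5:**
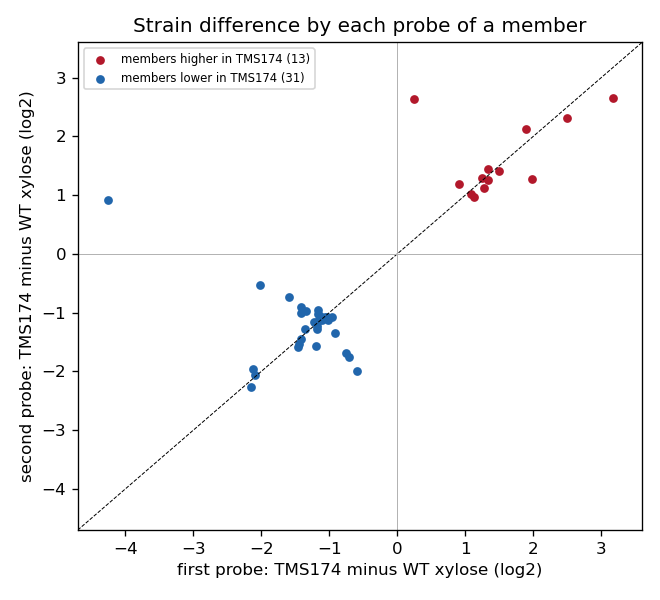
T minus X (log2) by the first probe (horizontal axis) and the second probe (vertical axis) of each of the 44 members with 2 probes. Most of the 13 higher (red) and 31 lower (blue) members lie near the dashed line of equality; the blue point at -4.26 and 0.92 is cut01g0020318, and the red point at 0.24 and 2.63 is cut01g0000117.

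Arrays that took no part in the choice were read as a description. The rule was applied 8 times with 1 array left out, and the left-out array was then read. Chosen without TMS174 replicate 1, 63 transcripts met the rule, and on that array all 63 differed from WT on xylose in the chosen direction, 44 of them (69.8%) at least 2-fold. Without TMS174 replicate 2 the rule chose 71, of which 70 kept the direction and 44 (62.0%) the 2-fold size. The median difference on the left-out array was 1.2 and 1.13, close to the 1.2 and 1.22 on which the transcripts were chosen. The left-out TMS174 array shares its slide with the one kept, and the WT xylose arrays served both the choice and the reading, which favours the chosen direction.

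The left-out WT xylose arrays gave less even values. Chosen without replicate 3, all 50 transcripts kept the direction against that array and 47 the 2-fold size. Without replicate 1 these were 50 and 41 of 55, and without replicate 2 they were 85 and 36 of 85. Both TMS174 arrays served the choice and the reading here, which again favours the chosen direction. Leaving out replicate 2 let in more transcripts than leaving out any of the other 7 arrays. Each left-out WT glucose array was read against WT on xylose. The difference was below the sugar threshold for 49 of 62 (79%), 42 of 66 (63.6%) and 42 of 60 (70%) transcripts (replicates 1, 2 and 3). By the group means, 54.9% of all design IDs above background on all arrays were below it. Their share on a single glucose array was not counted. The WT xylose arrays also served both the choice and the reading, so nothing is read from the glucose counts. In all, 24 of the 58 (8 higher and 16 lower) met both differences of the rule in each of the 8 sets with 1 array left out, among them cut01g0050117, cut01g0050118 and cut01g0030726. The 24 also include cut01g0020318, cut01g0000117 and cut01g0050448, whose probes disagree, so the count says nothing about agreement between probes. The 2 largest rises failed in 1 set each, on the sugar difference. For cut01g2810001 this was the set without WT glucose replicate 2, and for cut01g0050658 the set without WT xylose replicate 2. Their T minus X stayed between 2.58 and 3.13 for cut01g2810001 and between 2.18 and 2.72 for cut01g0050658. The 2 probes of cut01g2810001 had an X minus G of -0.33 and 0.58.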

How the data were processed

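Spots were quantified by the authors in Agilent Feature Extraction, whose version was 9.5.3.1 per the submitters' processing notes. The deposited files give, per the file headers, a background-subtracted processed signal intensity per spot on a linear scale, not normalized between arrays, with median spot and local background intensities and flags of 0 or 1. The deposited ratio table holds, as its values show, the processed signal over 1 number per array. From the deposited intensity, log2 levels were computed relative to each array's 75th percentile (2958 to 4130) over 15208 yeast probes and averaged per design ID; the 536 control spots were left out. A design ID is above background if any of its probes is flagged so. The 7970 above background on at least 2 arrays were tested with limma 3.58.1 in R 4.3.3 (group means over 8 arrays, 5 residual degrees of freedom, eBayes, Benjamini-Hochberg adjustment); the standard errors come from this fit. The same steps were run on simulated data with independent noise and no slide effect, which do not cover the confounding of strain and slide. The p-values of limma set the group differences against the spread between arrays within groups, and do not reach beyond these cultures. Those that involve TMS174 also carry any difference between the slides. The members, lists, rule for names (the 2 largest differences each way) and alternatives were chosen with earlier results of these data known; other design IDs are named for their values. The alternatives were other scalings, background corrections, probe choices, filters, thresholds and fits, and leaving out each array.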

Additional observations from a re-analysis of the deposited data

How the results depend on the processing

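The counts of transcripts chosen by the rule depended on the thresholds, the filter and the scaling. A sugar threshold of 0.3 gave 8 higher and 22 lower, with 2 next to another by number, and a strain threshold of 1.5 gave 5 and 7, with 2. Without a filter on background there were 20 higher and 155 lower, with 16 next to another, and with every probe above background on all arrays 17 and 29. Quantile normalization gave 19 lower, normexp 13 and spike-in scaling 311, with 77 next to another. Under normexp 15 of the 58 had 2 probes in agreement, and 80.6% of readings on a left-out TMS174 array kept the 2-fold size, against 65.7% under the main processing. Calls between the strains numbered 1417, and 4453 under spike-in scaling, 2762 with array weights and 323 to 2060 with 1 array left out (634 and 590 without WT xylose replicates 1 and 3, 353 and 323 without TMS174 replicates 1 and 2). Leaving out 1 array gave 16 to 25 higher and 33 to 60 lower transcripts, and 2 to 20 next to another. The replicate number as a block gave 755 calls, with 41 of the 58 among them. Same-numbered arrays of different groups had deviations correlated at -0.15 to 0.19, and differently numbered ones at -0.21 to 0.16. These are deviations from means of 2 or 3 arrays, so they cannot tell whether same-numbered cultures were handled together. The deposited ratio table and leaving out outlier spots chose the same 58. The direction between the strains turned for 2 of the 58 under normexp and for 1 without WT xylose replicate 3, and for none of the 58 under the other scalings, probe choices, filters and left-out arrays. With 1 TMS174 array left, it is assumed to vary like the other groups. Agreement of 2 probes has no value where 1 probe is used, and left-out arrays were not read at the strain threshold of 1.5. The causes were not tested.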
